A study of Arabidopsis thaliana with 14 samples.

Results

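The peripheral endosperm, the layer of endosperm that lines the seed cavity around the embryo, was represented by 2 arrays, 2 of the 14 in the series and 2 of the 12 that profile a single microdissected compartment. They are the arrays labelled peripherial endosperm, and they were compared with the 2 arrays each of the micropylar endosperm, the embryo proper, the general seed coat, the chalazal seed coat and the chalazal endosperm. The 2 whole-seed arrays entered the fit, where they contribute to the estimate of spread, but no comparison, and they are quoted as levels only. Every group came from Arabidopsis thaliana Ws-0 plants of 38 to 46 days, grown at 20 °C under continuous light, from bending-cotyledon seeds whose cotyledons measured 100 to 140 µm. Siliques had been fixed with an ethanol and acetic acid mixture before paraffin embedding, and a laser cut the compartments out of sections. Between 5 and 6 ng of total RNA was amplified for a sample, and between 2 and 5 ng for the micropylar endosperm. The micropylar arrays carry embryo proper in their cell type field, but their titles, sources and descriptions all name the micropylar endosperm, and they are treated as such here. The number of seeds behind a sample was not given.

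In Arabidopsis the endosperm is the second product of double fertilisation, and it feeds the embryo before the embryo stores its own reserves. It begins as a syncytium in which a micropylar region around the embryo, a peripheral region and a chalazal region next to the maternal vascular supply can be told apart. At the bending-cotyledon stage the peripheral region is cellular and is being consumed by the growing embryo, apart from an outer layer that persists in the mature seed. Sugars arrive from the seed coat through efflux carriers such as those of the SWEET family. Wall hydrolases and expansins loosen walls where the endosperm makes room for the embryo.

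Values are linear signal intensities that had been scaled by the authors to a trimmed mean of 500 on each array. Array medians ran from 99.0 (peripheral endosperm replicate 1) to 188.1 (whole seeds replicate 1), with 133.3 on peripheral endosperm replicate 2. Over the 14765 probe sets tested, the log2 values of the 2 peripheral arrays correlated with r = 0.867, while replicate 2 correlated with micropylar endosperm replicate 1 with r = 0.883. These are correlations across probe sets, which are not independent. Replicate 1 was above replicate 2 for 6452 probe sets and below for 8313, with a median log2 difference of -0.14. The ratio of 3′ to 5′ signal of the GAPDH control probe sets, a measure of RNA length, was 2.90 and 3.89 on the peripheral arrays. It was highest, at 7.50, on micropylar endosperm replicate 3 and ran from 2.17 to 5.25 on all others. With 2 arrays in a group the number of arrays limits the precision of every value. In a bulk sample, fewer cells of a type and less RNA per cell cannot be told apart.

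The 3 genes taken as markers of the peripheral endosperm, chosen with earlier results of these data known, were highest there. GH9C1 read 14825 and 12274 on the peripheral endosperm arrays, 2383 and 3184 in the micropylar endosperm, 194 and 81.1 in the chalazal endosperm, 111 and 218 on the embryo arrays, 621 and 508 in the general seed coat and 117 and 108 in the chalazal seed coat. GH9C1 belongs to glycosyl hydrolase family 9, whose members cut beta-glucans of the cell wall. SWEET11 read 12519.5 and 10598 on the peripheral endosperm arrays, 5579 and 2786 in the micropylar endosperm, 3.99 and 56.4 in the chalazal endosperm, 158 and 281 on the embryo arrays, 548 and 454 in the general seed coat and 1003 and 1049.6 in the chalazal seed coat. SWEET11 is a plasma membrane sucrose exporter. AT3G62820 read 2284 and 3048 on the peripheral endosperm arrays, 99.8 and 109.9 in the micropylar endosperm, 49.9 and 9.76 in the chalazal endosperm, 75.6 and 6.8 on the embryo arrays, 59.2 and 22.3 in the general seed coat and 7.1 and 8.14 in the chalazal seed coat. In no case did a peripheral array overlap with an array of another compartment, which the way the markers were chosen favours. Against the micropylar endosperm, the next-highest compartment for all 3, the log2 difference was 4.29 ± 0.59 (SE) for AT3G62820, 2.28 ± 0.40 for GH9C1 and 1.54 ± 0.44 for SWEET11. The largest of the 5 Benjamini-Hochberg adjusted p-values from limma was 0.000637, 0.00364 and 0.0467 in turn. SWEET11 was the least secure of them, since without micropylar endosperm replicate 3 its difference was 1.04 (adjusted p = 0.379), without peripheral endosperm replicate 1 it was 1.42 (adjusted p = 0.179), and leaving out any array of the embryo proper or of either seed coat region moved the adjusted p above the threshold, to between 0.0544 and 0.0605. It also missed the threshold with the 12 compartment arrays alone (adjusted p = 0.0721), with no filter on dim probe sets (0.0616), with log2(value + 1) (0.277), with quantile normalization (0.0561) and without the intensity trend (0.0874).

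Each of the 5 other compartments was compared with the peripheral endosperm over 14765 probe sets. A probe set was called if its limma adjusted p was under 0.05 and its difference at least 1 on the log2(value + 32) scale, on which changes of dim probe sets are understated. Against the micropylar endosperm 333 probe sets were higher in the peripheral endosperm (2.26% of those tested) and 598 lower (4.05%). Against the embryo proper the counts were 1385 (9.38%) and 1905 (12.9%). They were 2120 (14.4%) and 2541 (17.2%) against the general seed coat. Against the chalazal endosperm, 2504 (17%) were higher and 2655 (18.0%) lower. Against the chalazal seed coat, 2237 (15.2%) were higher and 2961 (20.1%) lower. Against the mean of the 5, each weighing equally on the log2 scale, 1474 were higher (9.98%) and 2046 lower (13.9%). All these comparisons share the 2 peripheral arrays, so their calls are not independent of each other.

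**Figure D1:**
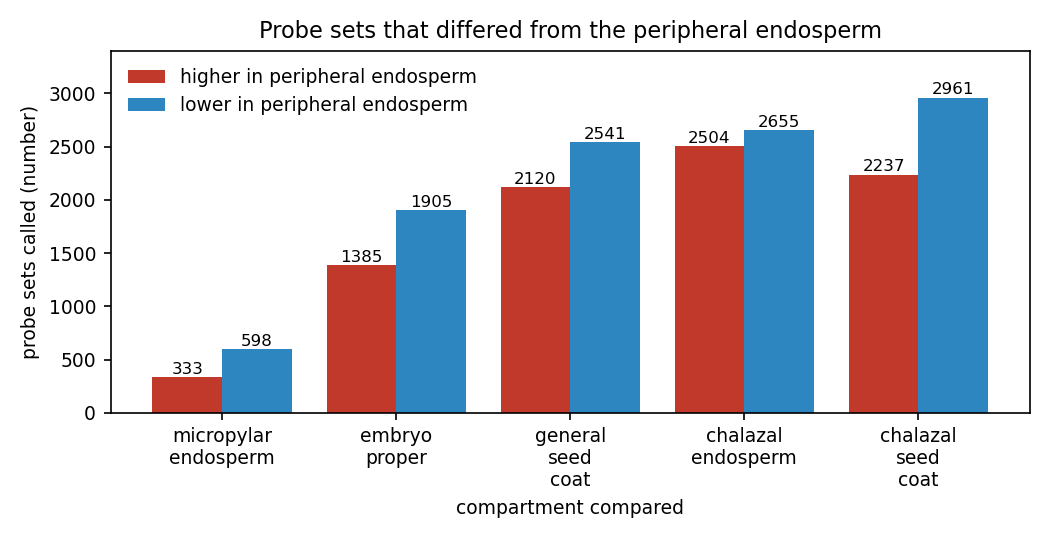
The number of probe sets called higher (red) and lower (blue) in the peripheral endosperm is plotted for each compartment it was compared with, on a linear axis from 0. The bars are shortest for the micropylar endosperm, with 333 and 598, and each of the other 4 compartments gave at least 1385 and 1905.

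The chalazal endosperm, although endosperm too, differed at 5159 probe sets, and the micropylar endosperm at 931. The difference between those counts was not tested. The micropylar count depended on single arrays. It was 163 without micropylar endosperm replicate 3, 351 without peripheral endosperm replicate 1 and 2182 without peripheral endosperm replicate 2. For the embryo proper it went from 3290 to 1676 and 1654 without either embryo array, and for the mean of 5 from 3520 to 2173 without peripheral endosperm replicate 1. Log2 differences of at least 5 in favour of the peripheral endosperm were found for 101 probe sets against the chalazal seed coat, 96 against the chalazal endosperm, 73 against the embryo proper, 3 against the general seed coat and 0 against the micropylar endosperm. In the other direction they numbered 174, 83, 31, 140 and 2. The balance of the directions moved with the scaling of the arrays. As deposited, the share of calls that were higher was 42.1% against the embryo proper, 35.8% against the micropylar endosperm, 48.5% against the chalazal endosperm, 43.0% against the chalazal seed coat, 45.5% against the general seed coat and 41.9% against the mean of 5. With arrays scaled to a common median these shares were 57.6%, 46.2%, 56.8%, 59.7%, 66.3% and 61.2%, and with quantile normalization 46.6%, 37.0%, 51.8%, 50.0%, 52.7% and 49.6%. Against the micropylar endosperm lower calls were in the majority under all 3 scalings. The median over all probe sets moved from -0.16 to 0.12 against the mean of 5, and the values below are to be read against a background of -0.16.

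Higher in the peripheral endosperm than in each of the other 5 compartments were 81 probe sets (0.549% of those tested), 35 of which name a single gene. The micropylar endosperm was next-highest for 41 of them, the general seed coat for 16, the embryo proper and the chalazal endosperm for 10 each and the chalazal seed coat for 4. Their peripheral levels ran from 151 to 26948, with a median of 3082. In whole seeds all 81 were below their peripheral level, at 10.4% to 66.1% of it with a median of 25.9%. Whole seeds contain the other compartments too, so a lower level there largely follows from how the set was chosen. The gap to the next-highest compartment ran from 1.11 to 4.29 on the log2 scale, with a median of 1.87.

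The 24 single-gene members that stood furthest above the next compartment were led by AT3G62820, described above, and by loci to which the annotation used here gives no name. AT2G14520 read 3546 and 2164 on the peripheral endosperm arrays, 432 and 244 in the micropylar endosperm, 146 and 56 in the chalazal endosperm, 367 and 402 on the embryo arrays, 335 and 243 in the general seed coat and 13.7 and 143 in the chalazal seed coat. AT3G61930 read 5312 and 4144 on the peripheral endosperm arrays, 874 and 542 in the micropylar endosperm, 8.75 and 35.9 in the chalazal endosperm, 26.6 and 10.3 on the embryo arrays, 109 and 8.97 in the general seed coat and 8.35 and 14 in the chalazal seed coat. AT1G64800 read 5779.8 and 8533 on the peripheral endosperm arrays, 1158 and 1152 in the micropylar endosperm, 13.2 and 12.3 in the chalazal endosperm, 133 and 197 on the embryo arrays, 863 and 215 in the general seed coat and 68.3 and 56.2 in the chalazal seed coat. For each of these loci both peripheral arrays lay above every other compartment array, which the choice of loci by their gap favours. The gap was 2.75 ± 0.58 for AT2G14520, 2.71 ± 0.58 for AT3G61930 and 2.57 ± 0.50 for AT1G64800, with largest adjusted p-values of 0.00712, 0.0115 and 0.00712.

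**Figure D2:**
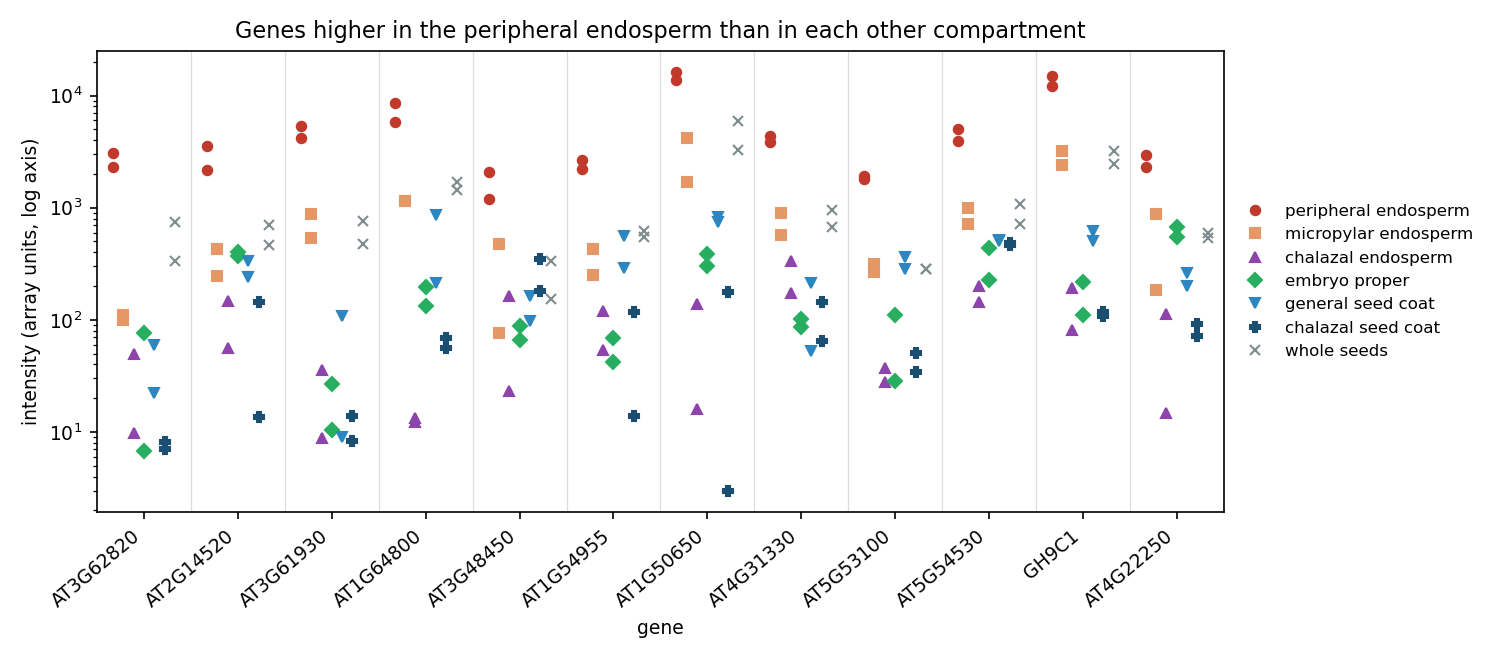
Intensity on each array (log axis, array units) is plotted for the first 12 of the 24 single-gene members that stood furthest above the next compartment, with 2 points per group and whole seeds as crosses. The peripheral endosperm points (red circles) stand above all points of the other 5 compartments for most genes, and the micropylar endosperm (orange squares) is often the nearest.

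Among the brightest of the 24 were BGLU44, a beta-glucosidase family member, and 3 loci that the annotation used here gives by locus number only. BGLU44 read 19039.8 and 14889 on the peripheral endosperm arrays, 5506 and 3229.8 in the micropylar endosperm, 34.5 and 6.71 in the chalazal endosperm, 2253 and 2832 on the embryo arrays, 2072 and 2633 in the general seed coat and 225 and 372 in the chalazal seed coat. AT1G50650 read 13772 and 16319.6 on the peripheral endosperm arrays, 4181 and 1685 in the micropylar endosperm, 139 and 16 in the chalazal endosperm, 305 and 389 on the embryo arrays, 834 and 745 in the general seed coat and 2.97 and 178 in the chalazal seed coat. AT5G12460 read 14996 and 12526 on the peripheral endosperm arrays, 4631 and 2760.1 in the micropylar endosperm, 7.83 and 10.8 in the chalazal endosperm, 126 and 239 on the embryo arrays, 1114 and 709 in the general seed coat and 91.5 and 41 in the chalazal seed coat. The micropylar endosperm came next in all 3, and the chalazal endosperm was dim. AT1G50650 is a member of the list of endosperm regulators used here. AT3G49050 reached 9965 ± 794 (mean ± SD, n = 2 arrays, as for all levels with an SD) against 2995 ± 866 in the micropylar endosperm and at most 417 elsewhere. AT1G19450 reached 6873 ± 1539, with the general seed coat next at 1671 ± 272.

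The embryo proper was next-highest for other members. AT4G22250 was at 2627 ± 444 against 607 ± 85.4 there, AT3G05180 at 3358 ± 674 against 836 ± 56.9 and AT5G62960 at 960.0 ± 181 against 261 ± 18.9. NET3A, of a family of actin-binding proteins, was at 4060.2 and 1649 on the peripheral arrays and at 814 and 679.6 on the embryo arrays. Its peripheral arrays differed widely from each other, as did those of AT2G43530, at 3137 and 913. Of the remaining members AT4G31330, AT5G54530, AT5G53100, AT2G41040 and AT1G54955 lay between 1869 and 4501 on the peripheral arrays, and AT1G54955 is a pseudogene in RefSeq. The dimmer ones were AT3G48450 (1651), AT3G44830 (823), AT2G45610 (463) and AT3G31900 (296), the last from a probe set that can match several genes.

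Fitted without the whole-seed arrays, the set held 60 probe sets, all of them among the 81. Leaving out 1 array at a time also changed it. It held 18 probe sets without micropylar endosperm replicate 3, 24 without peripheral endosperm replicate 1, 53 without embryo proper replicate 1 and 147 without peripheral endosperm replicate 2. Of the 81 probe sets, 9 were called in all 12 such fits, and so were 6 of the 24 genes: AT3G62820, AT5G54530, GH9C1, AT3G44830, AT1G19450 and AT3G05180. Replicate 1 was above replicate 2 for 57 of the 81 and below for 24.

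**Figure D3:**
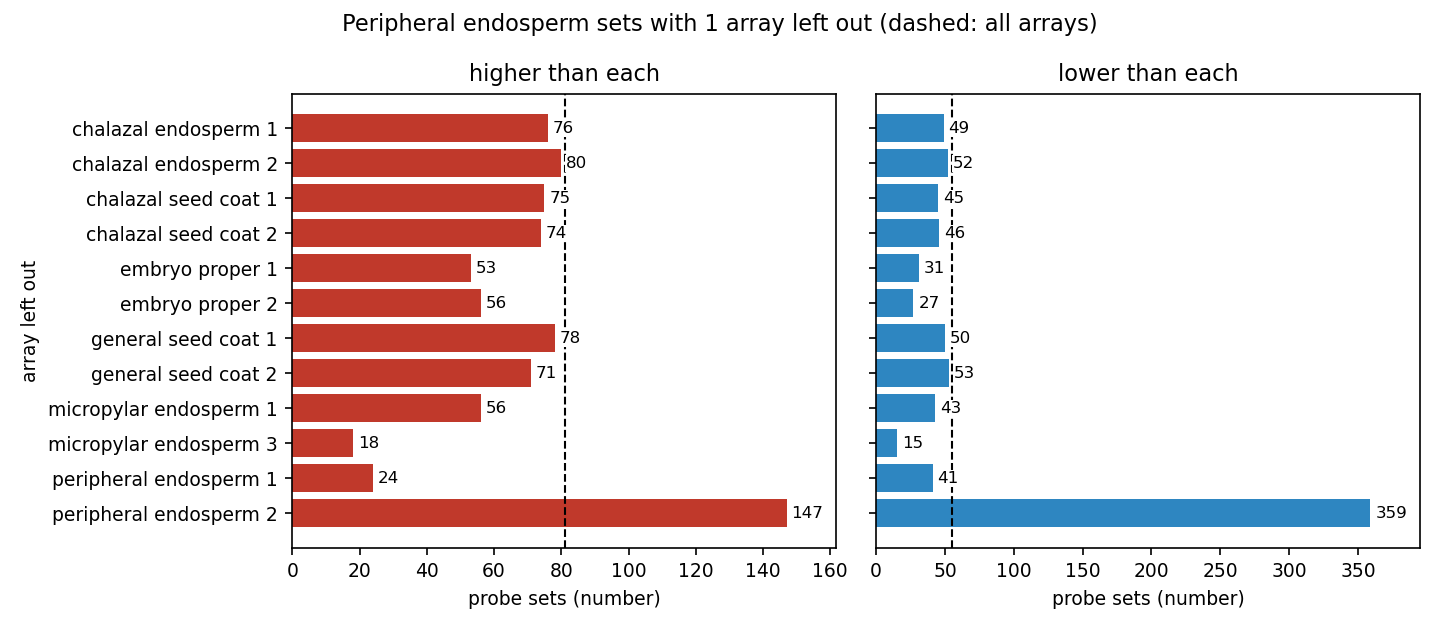
Each bar is the number of probe sets higher (left, red) or lower (right, blue) in the peripheral endosperm than in each of the other 5 compartments when the array named on the vertical axis was left out, on linear axes from 0 of different length. The dashed lines mark 81 and 55 with all arrays, and the counts ran from 18 to 147 and from 15 to 359.

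Lower in the peripheral endosperm than in each of the other 5 compartments were 55 probe sets (0.373% of those tested), of which 30 name a single gene. The nearest compartment was the embryo proper for 22 of them. Their median level was 76.0 on the peripheral arrays, and the whole-seed level was a median of 502% of it. A higher level in whole seeds largely follows from how the set was chosen. The loci named below were picked by their gap to the next-lowest compartment, which favours arrays that do not overlap. AT3G01690 read 26 and 8.3 on the peripheral endosperm arrays, 1355 and 1439 in the micropylar endosperm, 2981 and 3575 in the chalazal endosperm, 1189 and 956 on the embryo arrays, 1114 and 693 in the general seed coat and 1891 and 1169 in the chalazal seed coat. AT1G26620 read 5.98 and 29.3 on the peripheral endosperm arrays, 332 and 275 in the micropylar endosperm, 274 and 167 in the chalazal endosperm, 269.7 and 231 on the embryo arrays, 273 and 405 in the general seed coat and 408 and 349 in the chalazal seed coat. Both were lower on each peripheral array than on any other compartment array, with differences of -4.24 ± 0.38 and -2.35 ± 0.47 on the log2 scale against the next-lowest compartment (largest adjusted p 2.15e-06 and 0.00289), and they were the 2 of the 12 named genes called in all 12 leave-one-out fits.

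For several of the others the 2 peripheral arrays disagreed. AT2G35840 was at 3.54 and 399, AT1G63300 at 4.71 and 484, AT5G09240 at 13.6 and 128 and AT1G01930 at 15 and 297, against compartment means of 1184, 777, 531 and 563 on the embryo arrays. AT2G47020 and AT4G24050 were uniformly low, at 5.23 and 8.17 and at 6.51 and 14.2. AT4G24050 peaked in the chalazal seed coat at 6923 ± 772, and AT2G47020 in the general seed coat at 2774 ± 35.2. AT3G02070, AT5G24620, AT1G15490 and AT4G32920 had peripheral means of 101, 183, 42.8 and 46.6. The count of 55 was 31 and 27 without embryo proper replicates 1 and 2, 15 without micropylar endosperm replicate 3 and 359 without peripheral endosperm replicate 2, and 5 of the 55 were called in all 12 fits. Replicate 1 was below replicate 2 for 40 of the 55.

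The comparison with the micropylar endosperm asks what separates neighbouring regions of cellular endosperm. The genes that differed most in favour of the peripheral endosperm were AT3G62820, AT1G47400, AT2G43530, AT1G19450, AT3G05190 and AT5G11230. AT1G47400 was at 3306 and 1641 on the peripheral arrays and at 362 and 30.7 on the micropylar ones, and it was higher still in the chalazal seed coat, at 7346 and 5163. AT5G11230 was at 8943 ± 2461 against 1052 ± 578, with a general seed coat level of 4336 ± 1375 that did not pass the test. AT3G05190 was at 454 ± 90.2 against 22.1 ± 4.51, but no higher than in the embryo proper at 605 ± 153.

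Of the genes higher in the micropylar endosperm, some were held in common with the embryo proper and some were its own. Among the compartments, AT3G01690 was dim only in the peripheral endosperm. AT3G24250 read 22.1 and 124 on the peripheral endosperm arrays, 8961 and 6205 in the micropylar endosperm, 96.5 and 93.9 in the chalazal endosperm, 6417 and 4643 on the embryo arrays, 199 and 116 in the general seed coat and 146 and 19.4 in the chalazal seed coat. AT5G01870 read 173 and 41.7 on the peripheral endosperm arrays, 5575 and 10959 in the micropylar endosperm, 62.7 and 240.1 in the chalazal endosperm, 9613 and 9356 on the embryo arrays, 182 and 203 in the general seed coat and 5.18 and 1973 in the chalazal seed coat. Both loci were bright in the embryo proper as well as the micropylar endosperm and dim on the peripheral arrays. AT1G09370 was at 3656 and 3847 in the micropylar endosperm and at 71.3 and 152 on the peripheral arrays, and at most 130.1 on average elsewhere. AT3G10100, a pseudogene in RefSeq read by a probe set that can match several genes, followed that pattern at 3203 and 3241 against 107 and 69.6. AT4G12890 was at 1482 ± 442 against 24.7 ± 2.89, and AT3G01690 is described above. Log2 differences of these 6 genes ran from -6.35 to -4.71. AT3G05190 lost its call in 3 of the 12 fits that each left out 1 compartment array (log2 difference 2.97 to 3.24). AT2G43530 (log2 difference 3.56), AT1G47400 (log2 difference 2.59) and AT5G01870 (log2 difference -5.51) were not called without micropylar endosperm replicate 3. The call of AT2G43530 (log2 difference 2.46) was lost without peripheral endosperm replicate 1.

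Against the embryo proper, the genes most in favour of the peripheral endosperm were AT5G07260, AT5G59170, AT1G04380, AT3G61930, AT2G38900 and AT1G71250, with log2 differences of 6.46 to 7.48. Most were shared with other endosperm regions or the seed coat. AT5G07260 was at 6351 ± 111 on the peripheral arrays and 3.86 ± 2.9 on the embryo arrays, and it was at 12282 ± 1829.8 in the chalazal endosperm. AT5G59170 was at 19957 ± 16.6 against 88 ± 27.4, with 17019 ± 2669 in the micropylar endosperm and 13937 ± 7285 in the general seed coat. AT2G38900 was at 3389 ± 415 against 4.95 ± 0.615 and was higher in both seed coat regions. AT1G71250 was at 18990.4 and 15005 in the peripheral and 8832 and 6628 in the micropylar endosperm, and its other compartment means were at most 537.

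The genes most in favour of the embryo proper were AT1G62500, AT4G19380, AT3G05600, AT5G01870, AT5G44310 and AT3G24250, with log2 differences of -6.73 to -5.90. AT5G44310 was at 13032 and 13308 on the embryo arrays and at 127 and 187 on the peripheral arrays. AT1G62500 was at 7783 and 6722 against 84 and 8.42. AT3G05600 was at 9768 ± 550.3 against 122 ± 144. On the peripheral arrays each of the 6 had a mean of at most 157, and the 5 genes of the embryo list summed to 905 and 867 there against 3955 and 4260.1 on the embryo arrays. PHV made up 822 of the peripheral sum. Their part in the results was not tested.

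In the comparison with the general seed coat, the maternal tissue that covers the peripheral endosperm, the largest differences favoured the seed coat. GILT, a thiol reductase, was at 59675 and 59161 there and at 115 and 179 on the peripheral arrays. AT1G62070 was at 90745 and 62635 against 323 and 285. AT3G14760, AT1G09550, AT5G62150 and AT5G47330 had general seed coat means of 30543, 24585, 34016 and 9443 and peripheral means between 19.8 and 98.4. The 6 log2 differences ran from -8.81 to -7.51. On the micropylar arrays the same 6 loci differed widely between replicates, with GILT at 525 and 3089. In the other direction the genes were AT3G61930, AT3G62820, AT4G12840, AT1G71250, AT4G31330 and AT1G78060, with log2 differences of 4.82 to 5.96. AT4G12840 was at 2068 ± 564 against 45.9 ± 58.1, and AT1G78060 at 2200.3 ± 722 against 52.8 ± 49.9. The 4 genes of the mucilage list summed to 3262 and 4126 on the peripheral arrays and to 42780.2 and 49394 in the general seed coat.

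Between the peripheral and the chalazal endosperm the contrast ran both ways at full range. SBT4.13, a subtilase of the serine protease family, was at 32129 and 45579 in the chalazal endosperm and at 132 and 89.6 on the peripheral arrays. AT1G19320 was at 23621 and 31648 against 13.2 and 26.6, and AT1G30710 at 15631 and 15985 against 35.6 and 19.2. AT1G76290, AT2G15325 and AT2G20170 had chalazal means of 12824, 15369 and 11402 and peripheral means of at most 27.3. The chalazal seed coat held each of these 6 loci at a mean of 955 to 3556. In the peripheral direction AT1G71250, AT5G12460, BGLU44, AT1G47540, SWEET11 and AT3G49050 led, with log2 differences of 7.57 to 8.38, and all 6 had chalazal endosperm means of at most 98.3. AT1G47540 was at 19483 ± 3139.8 on the peripheral arrays, 26669 ± 4924 in the micropylar endosperm and 17236 ± 101 on the embryo arrays.

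Against the chalazal seed coat, the maternal region through which nutrients enter the seed, the peripheral endosperm led for AT4G36700, AT1G50650, SBTI1.1, AT1G71250, AT5G12460 and AT2G34700 (log2 differences 7.16 to 7.64). SBTI1.1, also of the subtilase family, was at 18195 and 13609.5 on the peripheral arrays, 8269 and 7496 in the micropylar endosperm and 177 and 17.1 in the chalazal seed coat. AT2G34700 was at 24842 ± 6299 against 157 ± 114. On the other side were AT3G10590, TBL38, SWEET10, AT1G26450, AT4G22400 and RR22 (log2 differences -9.71 to -7.99). SWEET10, of the SWEET sugar exporters, was at 15937 and 16368 in the chalazal seed coat and 30.5 and 8.75 on the peripheral arrays. RR22, a response regulator of cytokinin signalling, was at 18993 and 24542 against 71.1 and 38.1. TBL38, of the family whose members acetylate wall polymers, was at 10289.9 and 17024 against 2.39 and 5.23.

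Gene lists are described by the number of members called against the mean of the 5 and by the median of their log2 differences, to be read beside the 9.98% and 13.9% of all probe sets called higher and lower and the median of -0.16. The shares higher and lower over all probe sets were 9.38% and 12.9% against the embryo proper, 2.26% and 4.05% against the micropylar endosperm and 17% and 18.0% against the chalazal endosperm. Against the chalazal seed coat they were 15.2% and 20.1%, and against the general seed coat 14.4% and 17.2%. Of 524 listed genes 317 were tested, so that genes dim in every compartment are not counted. The lists were filled from probe sets with a single gene name. A further 8730 probe sets have no gene named, so members of a family can also be missing for that reason. Against the micropylar endosperm, 2 of 25 list calls were made under every alternative run described at the end. Of 8 sugar transport genes tested, 2 were higher and 1 was lower (median -0.37). SWEET11 and SAG29, which is also called SWEET15, were the 2 that were higher, by 4.53 ± 0.34 and 3.76 ± 0.43. SAG29 was at 4803 and 2752 on the peripheral arrays and at 5625 and 3911 in the general seed coat, where the difference did not pass the test, and its mean was at most 449 elsewhere. SWEET10, described above, was lower by the mean contrast, at -1.84 ± 0.41. SWEET7 was highest in the chalazal endosperm at 4154 ± 997, against 823 ± 697 on the peripheral arrays. SWEET1 and SWEET2 were highest in the general seed coat, at 713 ± 457 and 454 ± 68.6 against 123 ± 154 and 38.4 ± 11.3.

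**Figure D4:**
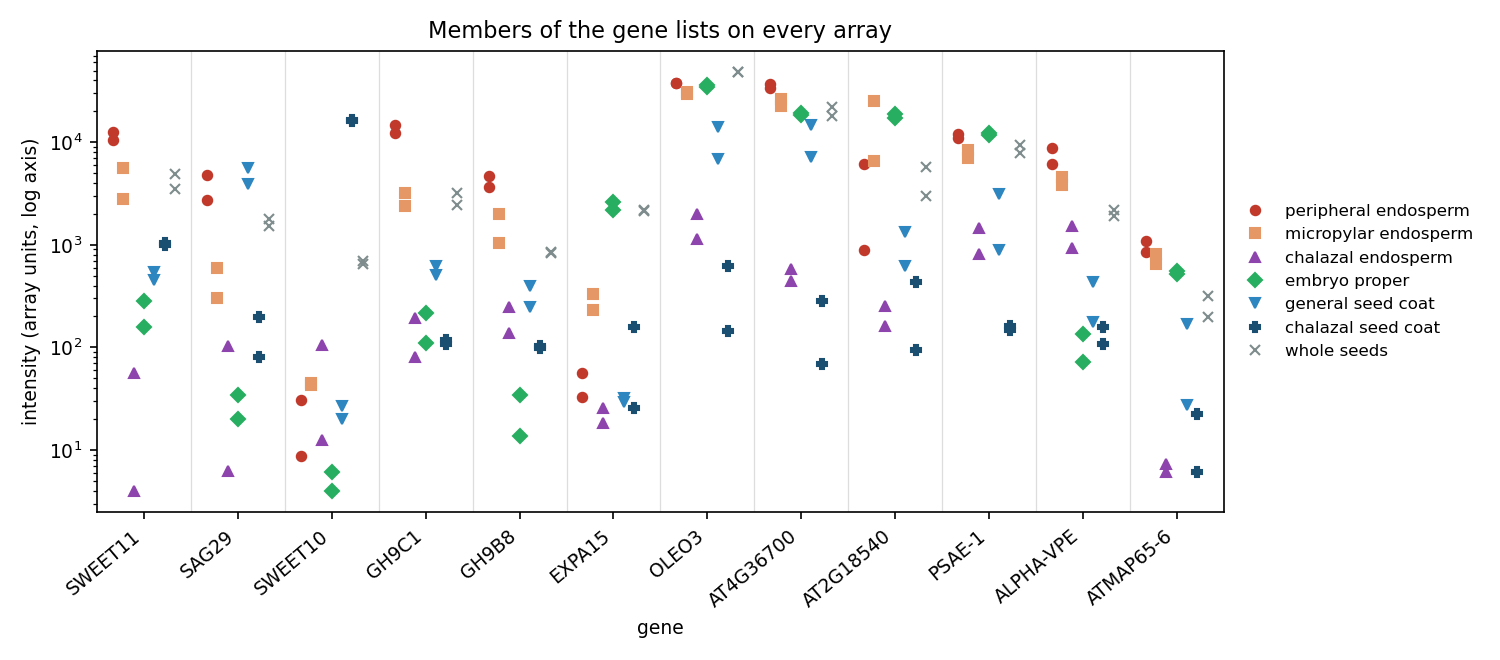
Intensity on each array (log axis, array units) is plotted for 12 members of the gene lists, with 2 points per group. SWEET11, GH9C1, GH9B8 and ALPHA-VPE are highest on the 2 peripheral arrays (red circles), while SWEET10 is highest in the chalazal seed coat and EXPA15 on the embryo arrays.

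Of 4 genes of seed oil and fatty acid synthesis tested, 3 were higher than the mean of the 5 (median 2.17). Against the embryo proper limma called 0 of the 4 (median 0.40), and 1 had an unadjusted p under 0.05. OLEO3, an oleosin that coats oil bodies, was at 38073 and 37532 on the peripheral arrays, 36004 and 34656 on the embryo arrays, 30819 and 29559 in the micropylar endosperm and 143 and 621 in the chalazal seed coat. FaTA, a thioesterase that releases fatty acids from the plastid carrier protein, was at 6264 ± 1601 against 5553 ± 322 on the embryo arrays and 2955 ± 302 in the micropylar endosperm. AT3G01570, listed with the oil body genes, was at 5189 ± 1044 against 6.06 ± 0.368 in the chalazal endosperm. FATB did not pass any of the tests, at 1359.5 ± 76.9.

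Of 6 storage protein genes tested, 1 was higher than the mean of the 5, 3 were lower and 1 higher than in the embryo proper (median -1.43) and 4 were higher than in the chalazal endosperm (median 2.18). AT4G36700, listed with the storage proteins, was at 37323 and 33639.7 on the peripheral arrays, 22463 and 26548 in the micropylar endosperm and 18324 and 19327 on the embryo arrays, and was 3.38 ± 0.31 higher than the mean of the 5. AT2G18540 was at 887 and 6103 on the peripheral arrays and 17204 and 18918 on the embryo arrays. PAP85, a vicilin-type storage protein, was at 285 ± 355 against 1908 ± 22.3 on the embryo arrays. Late embryogenesis abundant proteins, which protect cells on drying, were lower than in the embryo proper for 5 of 10 and higher for 1 (median -1.03). Against the mean of the 5 their median was -0.12, and 0.10 after median scaling, with COR47 higher (2949 ± 1107) and LEA18 (8.45 ± 2.06) and LEA (5.1 ± 0.557) lower. COR47 (log2 difference 1.02) and LEA (log2 difference -1.23) were not called without peripheral endosperm replicate 2. The call of LEA (log2 difference -1.20) was lost without peripheral endosperm replicate 1.

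All 10 nuclear photosynthesis genes tested were higher than the mean of the 5, with a median of 2.03. Each of the 10 was higher than in the general seed coat, the chalazal endosperm and the chalazal seed coat (medians 2.24, 3.42 and 4.28). Against the embryo proper 1 was higher and 1 lower, and against the micropylar endosperm limma called 0, with 1 at an unadjusted p under 0.05. PSAE-1 read 11027 and 12088 on the peripheral endosperm arrays, 8467 and 7061 in the micropylar endosperm, 1456 and 808 in the chalazal endosperm, 12232 and 11782 on the embryo arrays, 3117 and 894 in the general seed coat and 148 and 162 in the chalazal seed coat. PSAE-1 encodes a stromal subunit of photosystem I. PSAN, another photosystem I subunit, was at 4965 ± 1026 on the peripheral arrays, 12067 ± 867 on the embryo arrays and 45 ± 30.5 in the chalazal seed coat. LHCB4.1, LHCB4.2 and LHCB4.3, light-harvesting proteins of photosystem II, had peripheral means of 11856, 3092 and 6617 and chalazal seed coat means of 501, 48.3 and 608. PRK, the Calvin cycle enzyme phosphoribulokinase, was at 13403 ± 2303 against 291 ± 256.

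Of the 20 plastid-encoded genes of photosynthesis, 20 were higher than in the chalazal seed coat (median 1.52) and limma called 0 against the mean of the 5, with 18 at an unadjusted p under 0.05 and 9 called after median scaling. Of all 64 plastid-encoded genes, 51 were higher than in the chalazal seed coat (median 1.44), beside 15.2% of all probe sets. In the chalazal endosperm contrast 16 were higher and 0 lower, beside 17% and 18.0% of all. In that with the general seed coat 10 were higher and 2 lower, a share of higher genes near the 14.4% of all probe sets. Against the embryo proper 1 was higher and 12 were lower. Against the mean of the 5, 5 were higher, and 19 after median scaling. They were rpl32, a ribosomal protein (1.40 ± 0.26), atpF (1.26 ± 0.20) and atpB (1.22 ± 0.17) of the ATP synthase, and petN (1.07 ± 0.24) and petL (1.04 ± 0.33) of the cytochrome b6f complex. Of 15 genes of the mitochondrial genome, 9 were lower and 1 higher than in the general seed coat, beside 17.2% and 14.4% of all probe sets. In the chalazal seed coat contrast 7 were lower and 5 higher, beside 20.1% and 15.2% of all. The 5 higher were the 5 mitochondrion-encoded genes of the ribosome list (median 1.87). petL lost its call in 6 of the 12 fits that each left out 1 compartment array (log2 difference 0.90 to 1.19). The call of atpF (log2 difference 0.88) was lost without peripheral endosperm replicate 1. The call of petN (log2 difference 0.97) was lost without chalazal endosperm replicate 1. The call of petN (log2 difference 0.98) was lost without chalazal seed coat replicate 2.

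**Figure D5:**
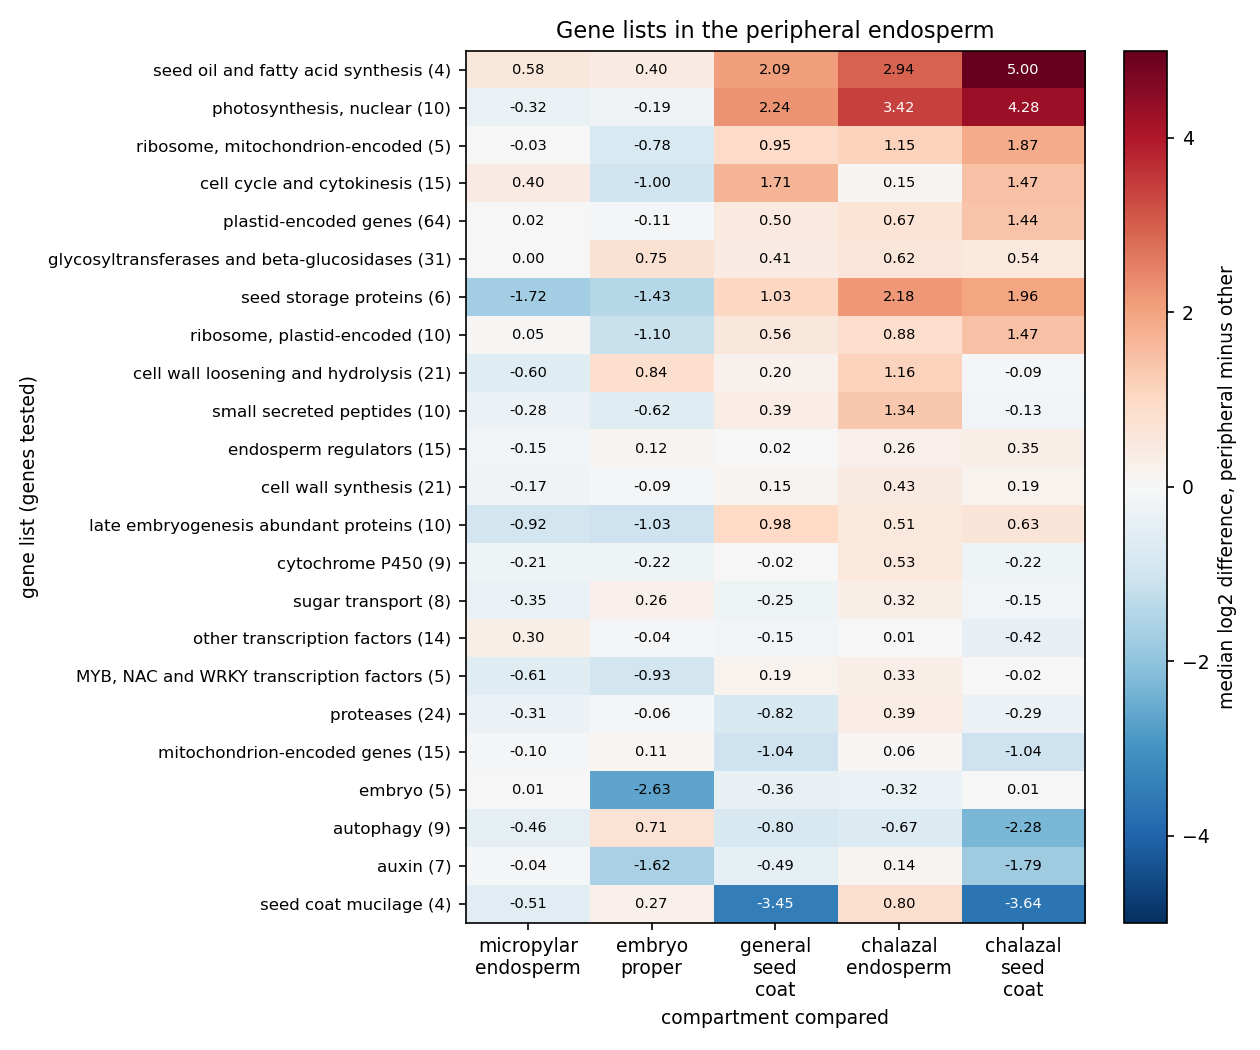
Each cell gives the median log2 difference (peripheral endosperm minus the compartment on the horizontal axis) over the tested genes of a list, with the number tested in brackets and small secreted peptides standing for lipid transfer proteins, defensins and cysteine-rich peptides. The oil and nuclear photosynthesis lists run from 2.09 to 5.00 against the seed coat regions and the chalazal endosperm, and 18 of the 115 medians, all between -0.29 and 0.02, turned sign under median scaling or quantile normalization.

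Wall genes were split. Of 21 genes of wall loosening and hydrolysis, 7 were higher than the mean of the 5 and 4 lower (median 0.03), and 9 and 1 after median scaling. Against the chalazal endosperm 9 were higher and 0 lower, and against the micropylar endosperm 1 was higher and 4 lower. GH9C1 stood first, at 5.18 ± 0.31. GH9B8, of the same hydrolase family, was at 3692 and 4670.2 on the peripheral arrays, 2018 and 1032 in the micropylar endosperm and 34.4 and 13.7 on the embryo arrays, 4.11 ± 0.35 above the mean of the 5. GH9C2 was higher as well (2.08). GH9B5 had a level of 58.7 ± 53.6, next to 1826 ± 400.4 for the general seed coat.

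Expansins, which loosen walls without cutting them, went in both directions. EXPB1 and EXPA4 were higher than the mean of the 5, at 1172 ± 79.8 and 1315 ± 786. The micropylar level of EXPA4 was 4983 ± 1111. EXPA15 was at 56.2 and 33.1 on the peripheral arrays and 2179 and 2594 on the embryo arrays. BGAL16, a beta-galactosidase, was higher (1.61 ± 0.50). PME61, a pectin methylesterase, was at 23.4 ± 21.7, and at 2658 ± 665 in the chalazal seed coat. GH9C2 (log2 difference 1.50), EXPA4 (log2 difference 1.12) and BGAL16 (log2 difference 1.14) were not called without peripheral endosperm replicate 2.

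Of 21 wall synthesis genes, 3 were higher and 6 lower than the mean of the 5 (median -0.22, and 0.02 after median scaling). Named members of the TBL family, whose characterised members acetylate wall polymers, differed in direction. TBL25 was at 906 ± 162 and was higher by 1.89 ± 0.38, and TBL38, TBL18 and TBL39 were lower, with peripheral means of 3.81, 38.2 and 68.8. CSLC5, of a family of xyloglucan backbone synthases, was at 456 and 272 and was higher (1.65 ± 0.47). GAUT15, of the galacturonosyltransferases, was at 20.2 and 71.1 and was lower (-1.64 ± 0.47). CSLC5 (log2 difference 1.31), GAUT15 (log2 difference -1.15) and TBL39 (log2 difference -1.23) were not called without peripheral endosperm replicate 1. The call of TBL18 (log2 difference -1.25) was lost without peripheral endosperm replicate 2.

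Of 24 protease genes tested, 5 were higher and 6 lower than the mean of the 5 (median -0.16, and 0.16 after median scaling), 8 were higher and 1 lower than in the chalazal endosperm (17% and 18.0% of all probe sets), and 5 were higher and 8 lower than in the general seed coat (14.4% and 17.2% of all). ALPHA-VPE read 6137 and 8766 on the peripheral endosperm arrays, 4536 and 3819 in the micropylar endosperm, 1541 and 934 in the chalazal endosperm, 134 and 72.7 on the embryo arrays, 437 and 178 in the general seed coat and 109 and 159 in the chalazal seed coat. ALPHA-VPE is a vacuolar processing enzyme, a cysteine protease. It was 3.85 ± 0.33 above the mean of the 5, whereas BETA-VPE, which processes storage proteins, was at 3184 ± 1776 on the peripheral arrays and 1073 ± 208 in the general seed coat. DELTA-VPE was at 1249 ± 101 on the peripheral arrays, 3523 ± 366 in the general seed coat and 28.1 ± 20.6 on the embryo arrays. Of the serine carboxypeptidase-like proteins, scpl48 was at 25994 ± 1440.2, SCPL45 at 2232 ± 290.3 and scpl26 at 3579.8 ± 484, all higher than the mean of the 5, and scpl35 was lower, at 13.1 ± 15.3 compared with 6199 ± 2082 in the general seed coat. SBT4.13, described above, was lower as well.

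Of 31 glycosyltransferases and beta-glucosidases, 9 were higher and 4 lower (median 0.48). BGLU44 led with 4.33 ± 0.28. UGT76E2 was at 8194 and 7062 on the peripheral arrays, 4164 and 4324 in the micropylar endosperm and 31.5 and 110.3 in the chalazal seed coat. BGLU29 was at 4352 ± 99.3 and 5814 ± 1385 in the peripheral and the micropylar endosperm. UGT84A3 was at 906 ± 363 and was higher by 2.46 ± 0.45. UGT78D1, which attaches rhamnose to flavonols, was lower, at 989.6 and 1149 compared with 34904 and 53056 in the general seed coat, and so was BGLU40 (2.33 ± 0.565). Both flavonoid genes tested lay between their levels in the embryo proper and in the seed coat. DFR was at 244 and 371 on the peripheral arrays, 23 and 25.8 on the embryo arrays and 6705 and 6449 in the chalazal seed coat, and BAN was at 191 and 207, 1.38 and 4.9 and 2617 and 2259. DFR and BAN act in the anthocyanidin and proanthocyanidin branch. Together they summed to 435 and 579 on the peripheral arrays and to 536 and 1140.1 in the micropylar endosperm. Between these regions limma called 0 of the 2, with 1 at an unadjusted p under 0.05. The part of seed coat RNA in the results was not tested.

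The mucilage list, named after the polysaccharide of the seed coat epidermis, was lower than in the general seed coat for 4 of 4 (median -3.45) and than in the chalazal seed coat for 3. ARA12, a subtilase, was at 840.3 and 1768 against 31182 and 34456, AT3G50990 was at 11.2 and 6.55 and AT3G10320 at 37 and 9.12. AT2G22900, of the same list, was at 2374 and 2343. The call of AT3G10320 (log2 difference -1.21) was lost without peripheral endosperm replicate 2.

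Cytochrome P450 genes were called higher for 2 of 9 and lower for 4 (median -0.32). CYP71B34 and CYP71B5 were higher, at 780.4 ± 366 and 765 ± 72.9. CYP71B25 was at 51.2 ± 12.5 against 4856 ± 1069 in the chalazal endosperm, and CYP78A9, CYP71B6 and CYP71B28 had peripheral means of 14.5, 45.4 and 56.4. CYP71B28 lost its call in 10 of the 12 fits that each left out 1 compartment array (log2 difference -1.65 to -0.94). The call of CYP71B25 (log2 difference -1.45) was lost without peripheral endosperm replicate 2. CYP78A9 (log2 difference -1.59) and CYP71B6 (log2 difference -0.75) were not called without peripheral endosperm replicate 1.

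Small secreted peptides were higher for 3 of 10 and lower for 1 (median 0.20). The plant defensin PDF2.1 was at 12169 and 18608 on the peripheral arrays, 18617 and 19396 in the micropylar endosperm and 98.9 and 216 on the embryo arrays (3.42 ± 0.29 above the mean of the 5). LCR69, which is also called PDF2.2, was brighter, at 87973 and 66082, with 36319.7 ± 6026 in the chalazal endosperm. Of the RALF-like peptides, RALFL34 was higher at 1895 ± 769.8 and RALFL22 lower at 21.6 ± 5.73 compared with 706 ± 238 in the general seed coat. RALFL34 lost its call in 8 of the 12 fits that each left out 1 compartment array (log2 difference 0.80 to 1.64).

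Of 15 endosperm regulators tested, 4 were higher and 1 lower (median -0.11, and 0.08 after median scaling). DME, the DNA glycosylase that activates the maternal alleles of imprinted endosperm genes, was at 2667 and 1863 on the peripheral arrays, 1341 and 1045 in the micropylar endosperm and 197 and 536 in the chalazal endosperm, 1.88 ± 0.36 above the mean of the 5. Its other 2 probe sets gave 1.36 and 0.72. AGL87, a MADS-box factor, was at 3457 ± 1205 and was shared with the chalazal endosperm at 3820.2 ± 567. AGL26, of the MADS-box family, was lower at 137 ± 109. EEL, a bZIP factor, was at 14781 ± 7336 and was higher than both seed coat regions. IKU1 was at 249.9 ± 303. AGL87 (log2 difference 1.45), AGL26 (log2 difference -0.83) and EEL (log2 difference 0.74) were not called without peripheral endosperm replicate 1.

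Of 14 homeobox, TCP, bHLH, bZIP and ERF factors, 1 was higher and 3 lower (median -0.21), and 2 and 1 after median scaling, and of 5 MYB, NAC and WRKY factors 1 was lower and 0 after median scaling. bZIP44 was at 6594 and 4752 on the peripheral arrays, 1629.7 and 1813 in the micropylar endosperm and 19699 and 31458 in the chalazal seed coat, and was 1.30 ± 0.25 above the mean of the 5. HAT2, a homeobox factor, was at 5.19 ± 1.15 compared with 6424 ± 437 in the chalazal seed coat. bHLH104 and bZIP19, regulators of the iron and the zinc response, were lower at 493 ± 110.3 and 639 ± 102, and WRKY20 at 282 ± 27.8. bZIP19 lost its call in 3 of the 12 fits that each left out 1 compartment array (log2 difference -0.99 to -0.88). WRKY20 lost its call in 6 of the 12 fits that each left out 1 compartment array (log2 difference -1.11 to -0.93). The call of bHLH104 (log2 difference -0.99) was lost without peripheral endosperm replicate 1.

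Of 15 cell cycle and cytokinesis genes, 6 were higher than the mean of the 5 and 0 lower (median 0.49). Higher than in the general seed coat were 10, beside 14.4% of all probe sets, and 0 were lower. Higher than in the chalazal seed coat were 8, beside 15.2% of all, and 0 were lower. Lower than in the embryo proper were 4, beside 12.9% of all, and 0 were higher (median -1.0). Against the chalazal endosperm 5 were higher and 2 lower, beside 17% and 18.0% of all. ATMAP65-6, a microtubule bundling protein, was at 1095 and 846 on the peripheral arrays, 807 and 646 in the micropylar endosperm, 556 and 515 on the embryo arrays and 7.27 and 6.15 in the chalazal endosperm. TOPII, a DNA topoisomerase, was at 3217 ± 1422 and, on the embryo arrays, at 7927 ± 512. The Aurora kinases AUR1 and AUR2 were at 1198 ± 56.8 and 1245 ± 869, the condensin subunit ATSMC2 at 436 ± 364 and the histone HTB4 at 11258 ± 2023. HTR12, the centromeric histone, was at 241 ± 238, and at 978 ± 33.6 in the chalazal endosperm. AUR1 lost its call in 7 of the 12 fits that each left out 1 compartment array (log2 difference 1.32 to 1.45). HTB4 lost its call in 5 of the 12 fits that each left out 1 compartment array (log2 difference 0.84 to 1.00). The call of ATSMC2 (log2 difference 1.63) was lost without embryo proper replicate 2. ATSMC2 (log2 difference 0.80), TOPII (log2 difference 0.89) and AUR2 (log2 difference 0.54) were not called without peripheral endosperm replicate 1.

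Autophagy genes were lower than in the chalazal seed coat for 6 of 9 and higher for 0 (median -2.28), beside 20.1% and 15.2% of all probe sets. Of the 9, 4 were lower and 1 higher than in the general seed coat (17.2% and 14.4% of all), and 1 was lower and 2 higher than in the embryo proper (median 0.71). Against the mean of the 5, 1 was higher and 3 lower (median -0.74), and 1 and 2 after median scaling. ATG8E, an ATG8 protein that is built into autophagosome membranes, was at 69.8 and 58.3 on the peripheral arrays and 1876 and 2367 in the chalazal seed coat. ATG8D and ATG8F were lower at 459.8 ± 501 and 2918 ± 467, and ATG8C was higher at 3481 ± 278. ATG8F lost its call in 6 of the 12 fits that each left out 1 compartment array (log2 difference -0.99 to -0.84). ATG8D (log2 difference -0.35) and ATG8C (log2 difference 0.98) were not called without peripheral endosperm replicate 1.

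Few genes of hormone response and metal transport could be tested. The gibberellin, abscisic acid and cytokinin list held 4 genes with a named probe set. The water, ion and metal transport list held 5, and 2 genes of each list were bright enough to test. GID1A, a gibberellin receptor, was at 378 ± 338 compared with 7675 ± 1036 in the general seed coat and was lower than the mean of the 5. ARR15, a type-A response regulator of cytokinin signalling, was at 266 and 228 on the peripheral arrays, 245 and 416 in the micropylar endosperm and 6.96 and 13.3 in the chalazal endosperm, and was higher. GH3.9, of the enzymes that conjugate amino acids to hormones, was lower at 62.3 ± 25.7 compared with 4970.2 ± 647 in the chalazal seed coat. It was the 1 of 7 auxin genes called against the mean of the 5. Against the chalazal seed coat 5 of the 7 were lower (median -1.79), beside 20.1% of all probe sets. Lower than in the embryo proper were 3 (12.9% of all), and than in the general seed coat 3 (17.2% of all), with 0 higher in each. Against the micropylar and the chalazal endosperm limma called 0. ZIP6, of the ZIP metal transporters, was at 7.52 and 12 on the peripheral arrays and 6502 and 6612 in the chalazal seed coat. Of 5 embryo genes, YAB3, of the YABBY factors, was lower (10.4 ± 4.46 against 2101 ± 37.7 on the embryo arrays) and PHV, an HD-ZIP III factor, higher (822 ± 49.1 against 552 ± 15.1, the latter difference not passing the test). GID1A (log2 difference -0.84), ARR15 (log2 difference 1.62) and YAB3 (log2 difference -1.51) were not called without peripheral endosperm replicate 1. GH3.9 (log2 difference -1.88) and YAB3 (log2 difference -1.29) were not called without peripheral endosperm replicate 2.

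For the remaining lists, 0 of 3 genes of beta-oxidation and the glyoxylate cycle and 0 of 2 cuticle and suberin genes were called against the mean of the 5 by limma, with 0 and 1 at an unadjusted p under 0.05. Of the 16 genes of the ribosome list, 15 of which are encoded in organelles, 1 was higher than the mean of the 5 and 0 lower. Against the chalazal seed coat 12 were higher and 0 lower (median 1.66), beside 15.2% and 20.1% of all probe sets. These were 7 of 10 plastid-encoded and 5 of 5 mitochondrion-encoded genes. Against the embryo proper 0 were higher and 8 lower (median -1.05), beside 9.38% and 12.9% of all. These were 5 plastid-encoded, 2 mitochondrion-encoded and the 1 nuclear gene. The nitrogen and peptide transport list held 1 gene with a named probe set, which was not tested, and the ABC transporter list held 0. Nothing can be said here about the levels of nitrogen and peptide transporters or of ABC transporters.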

How the data were processed

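The deposited values are signal intensities from the authors' GCOS software, per the submitters' processing notes (version not given in the sources used here), on a linear scale. From the values, their trimmed mean was 500 on each of the 14 Affymetrix ATH1 arrays. The array holds 22810 probe sets, 64 of them controls that were set aside. Tested were the 14765 of the other 22746 that exceeded the array median on both arrays of some group. Values were changed to log2(value + 32) and fitted over all 14 arrays with limma 3.58.1 in R 4.3.3 (lmFit and eBayes with an intensity trend, 7 residual degrees of freedom, two-sided). The Benjamini-Hochberg adjustment covered all probe sets of a contrast, and calls were made at adjusted p under 0.05 with log2 differences of 1 or more. The test was also run on simulated arrays with normal noise, in which only probe sets of above-median intensity were changed. Its recovery of dim probe sets was therefore not checked. No detection calls were used, so dim levels are not told apart from background.

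A probe set names a gene where the platform annotation gives 1 (13513). Symbols came from RefSeq TAIR10.1, in which 13436 were found, and a gene with several probe sets is given by the brightest. Named in the text are the 3 markers, the 24 enriched and 12 lower genes with the widest gap to the nearest compartment, the 6 higher and 6 lower genes of each contrast with the largest difference, and up to 6 called members of each of 29 gene lists. Other list members appear as values without a call, picked after the values were seen. The members and lists were chosen with earlier results of these data known. The plastid and mitochondrial lists were filled from the chromosome column of RefSeq, and the photosynthesis and ribosome lists are given by genome of origin. The groups are labelled as biological replicates. Alternatives were another pseudocount, filter, scaling or variance model, a replicate block, the 12 compartment arrays alone and leaving out each array. No sequences were used here.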

Additional observations from a re-analysis of the deposited data

How the results depend on the processing

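None of the 181 gene and comparison pairs of the naming rule, and none of the 691 calls of the 317 tested list genes over the 6 comparisons, changed direction under any alternative run. Of the 691 calls 430 were made under each alternative. The comparisons differed in this: 2 of 25 calls were so kept against the micropylar endosperm and 146 of 194 against the chalazal seed coat. The counts against the general seed coat (4661), the chalazal endosperm (5159) and the chalazal seed coat (5198) stayed within 1.5 times of these values under each alternative, and with 1 array left out they ran from 3368 to 4918, from 4081 to 5212 and from 3888 to 5492. Left out in the same way, the counts ran from 1654 to 4030 against the embryo proper, from 163 to 2182 against the micropylar endosperm and from 2173 to 3978 against the mean of the 5, from 18 to 147 for the probe sets higher than in each compartment and from 15 to 359 for those lower. The lone array left in a group was assumed to vary like the others. With log2(value + 1) the micropylar count was 541 and the higher set held 33. With log2(value + 100) the higher set held 124 and the lower set 36. Median scaling gave 122 higher, which included all 81. On the 12 compartment arrays alone 60 of the 81 and 39 of the 55 were called, and no others. Without the micropylar endosperm, an alternative chosen after seeing the data, 327 probe sets were higher than in each of the other 4 compartments. That last set could only grow, since 1 of the conditions was dropped. The cause of the other changes was not tested.

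Samples of the same replicate number did not deviate together from their group means across probe sets (r from -0.0307 to -0.00191 over the pairs with the peripheral endosperm). The micropylar endosperm was not among these pairs. Whether samples of the same number shared plants or handling was not tested. With the replicate block the micropylar count was 136, the higher set held 12 and the lower set 13, and the count was 3148 against the embryo proper. Micropylar endosperm replicate 3 has a number of its own, so the block takes that array out of the comparison. With the block the gap of SWEET11 was 0.87 (adjusted p = 0.461). Of the 24, 12 and 12 genes named for the higher set, the lower set and the micropylar contrast, 8, 4 and 8 held their call without that array, and 4, 4 and 8 with the block. Of the 24 and 12 for the higher and the lower set, 9 and 3 held it without peripheral endosperm replicate 1, and 10 and 11 with log2(value + 1). Of the 85 named against the mean of the 5, 58 held it without peripheral endosperm replicate 1 and 70 without replicate 2. All genes named for the other 4 contrasts held theirs in each alternative run. The 2 arrays per group and the dim signal of many probe sets limit what these comparisons can show.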

Other observations

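Genes listed in these paragraphs were picked after their values were seen, so only levels are given, as means ± SD over 2 arrays. PORB, the light-dependent protochlorophyllide reductase, was at 1664 ± 871 on the peripheral arrays, 1624 ± 267 on the micropylar ones, 7176 ± 717 on the embryo arrays and 58.5 ± 15.9 in the chalazal seed coat. CHLM, a methyltransferase of chlorophyll synthesis, was at 2354 ± 234, 3071 ± 354, 5512 ± 184 and 289 ± 154 in the same order, and NOL, a chlorophyll b reductase, at 1482 ± 45.3, 1505 ± 509, 2179 ± 77.4 and 126 ± 37.3. ATPC1, a subunit of the plastid ATP synthase, was at 7972 ± 2951, 5177 ± 1029, 5227 ± 508 and 306 ± 127. For starch, SBE2.2, a branching enzyme, was at 5535 ± 761 on the peripheral arrays and 2388 ± 232 on the embryo arrays. AMY1, an alpha-amylase, was at 590.1 ± 186 in the peripheral and 1297 ± 604 in the micropylar endosperm.

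The receptor kinase EMS1 was at 3739.7 ± 358 on the peripheral arrays, 2271 ± 730.4 in the micropylar endosperm and 112 ± 51.9 on the embryo arrays. ACT11, an actin, was at 2075 ± 6.58, 1295 ± 512 and 176 ± 95.9 in the same order, and IQD16 at 2291 ± 168, 1119.8 ± 83.5 and 161 ± 22.4. The glutathione transferase GSTU20 was at 5275 ± 487 on the peripheral arrays and 59.5 ± 71.5 in the chalazal endosperm. Low in the peripheral endosperm were RRP41, an exosome subunit, at 76 ± 6.59 against 2009.5 ± 262 in the chalazal endosperm, THO5, of the THO complex of mRNA export, at 161 ± 222 compared with 3023 ± 295 in the general seed coat, and NRPA1, the largest subunit of RNA polymerase I, at 45.2 ± 50.4 against 410.0 ± 156 in the chalazal endosperm. AT1G47400 was at 8.66 and 42.6 on the whole-seed arrays, below its peripheral levels of 3306 and 1641 and its chalazal seed coat levels of 7346 and 5163.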
